A study of Homo sapiens with 2 samples.

Results

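The RUNX genes and their core-binding partners RUNX1, RUNX2, RUNX3, CBFB, CBFA2T3 and RUNX1T1 were examined for antibody peaks in NB4, a cell line from human acute promyelocytic leukemia with the fusion gene PML-RARA. A peak was counted when it overlapped the gene body or the 20 kb on either side in hg19, and 46 of the 20085 listed peaks met this rule, spread over 5 of the 6 genes. The cells had no stated treatment and were profiled with a PML-RARA antibody by CUT&Tag, in which a transposase tethered to the antibody inserts sequencing adapters next to the bound chromatin. The series has 2 replicates of this 1 group, and the authors merged them into a single peak list. Values of the separate replicates are not in this list, so neither their spread nor a test over samples can be given, and the sequencing depth is unknown. No control antibody, input or second group was analysed here, and whether separate cultures gave the replicates is not stated in the labels.

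RUNX1, RUNX2 and RUNX3 encode transcription factors that bind DNA through the Runt domain, and CBFB encodes their shared partner subunit, which binds no DNA itself and strengthens the binding of RUNX proteins. RUNX1 is required for the emergence of blood stem cells and is among the most often rearranged genes in acute leukemia. RUNX1T1 (ETO) and CBFA2T3 (ETO2) encode co-repressors of the ETO family, and each is a fusion partner of RUNX1 in acute myeloid leukemia. The 3 RUNX genes share a layout with a distal and a proximal promoter far apart, from which isoforms with different amino termini are transcribed. CBFA2T3 likewise has an outer and an inner start.

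Promoter sequences are shown because the results turn on which promoters carry a peak, and in RUNX2 the proximal one did and the distal one did not. RefSeq entries (GRCh38.p14, 250 bases before to 50 after the start) were found for 6 promoters of 4 of the 6 genes, of which 5 are printed 5′ to 3′. Capitals mark the RUNX motif ACCACA and the half-site of retinoid receptors (AGGTCA or its variant AGTTCA, and GGGTCA or its variant GGTTCA), searched on both strands. These coordinates are in another build than the peaks, and the entries were linked to peaks by the name and order of the promoters.
RUNX2 distal promoter, chr6:45328080-45328379 (plus strand): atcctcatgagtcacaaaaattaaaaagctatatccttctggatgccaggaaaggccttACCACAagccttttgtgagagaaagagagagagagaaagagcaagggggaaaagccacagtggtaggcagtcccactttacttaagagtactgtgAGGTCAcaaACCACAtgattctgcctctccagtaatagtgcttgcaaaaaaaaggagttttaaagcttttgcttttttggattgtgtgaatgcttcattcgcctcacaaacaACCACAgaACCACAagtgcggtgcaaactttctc
RUNX3 distal promoter, chr1:24964961-24965260 (minus strand): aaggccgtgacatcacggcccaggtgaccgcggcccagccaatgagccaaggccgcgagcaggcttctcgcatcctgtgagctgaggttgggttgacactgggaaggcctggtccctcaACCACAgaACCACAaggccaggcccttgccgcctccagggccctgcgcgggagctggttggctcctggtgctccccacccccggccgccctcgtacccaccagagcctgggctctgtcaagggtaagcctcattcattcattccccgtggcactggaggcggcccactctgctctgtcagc
RUNX1 proximal promoter, chr21:34888650-34888949 (minus strand): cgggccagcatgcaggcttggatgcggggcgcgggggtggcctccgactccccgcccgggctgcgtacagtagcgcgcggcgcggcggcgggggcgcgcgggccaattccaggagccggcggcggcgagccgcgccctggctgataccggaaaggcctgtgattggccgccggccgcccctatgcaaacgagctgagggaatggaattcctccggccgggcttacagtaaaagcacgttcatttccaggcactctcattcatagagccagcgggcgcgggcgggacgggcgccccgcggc
RUNX2 proximal promoter, chr6:45422025-45422324 (plus strand): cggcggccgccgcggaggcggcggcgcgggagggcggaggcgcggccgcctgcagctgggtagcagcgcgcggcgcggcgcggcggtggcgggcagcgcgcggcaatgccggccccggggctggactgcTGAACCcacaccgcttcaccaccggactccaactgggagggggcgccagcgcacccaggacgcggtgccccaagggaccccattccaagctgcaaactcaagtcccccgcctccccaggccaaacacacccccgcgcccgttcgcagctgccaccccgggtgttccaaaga
RUNX3 proximal promoter, chr1:24930227-24930526 (minus strand): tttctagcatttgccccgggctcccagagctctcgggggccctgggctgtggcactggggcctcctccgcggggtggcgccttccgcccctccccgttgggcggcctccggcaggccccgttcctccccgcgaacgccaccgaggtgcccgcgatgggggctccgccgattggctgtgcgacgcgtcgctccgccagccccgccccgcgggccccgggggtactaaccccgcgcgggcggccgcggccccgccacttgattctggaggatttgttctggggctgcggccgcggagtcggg

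The distal promoters of RUNX2 and RUNX3 share an 18-base stretch with a pair of adjoining RUNX motifs, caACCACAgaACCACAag. In the same orientation no longer stretch was shared by both windows, and it occurred in 2 of the 35116 RefSeq promoter windows, those of RUNX2 and RUNX3. It was picked as the longest stretch shared by these 2 windows, so both matches were fixed in advance. How often other pairs of windows share a stretch this long was not measured. It lay from 15 to 32 bases after the start in RUNX2 and from 133 to 116 bases before it in RUNX3. In all, the RUNX motif occurred 4 times in the RUNX2 window and 2 times in the RUNX3 window, while 1.31% of all promoter windows held it at least 2 times. None of the proximal windows of RUNX1, RUNX2, RUNX3 and CBFA2T3 held the motif, which 13.1% of all windows held at least once. Retinoid half-sites were found once in the RUNX2 distal window, 96 bases before the start, and once in the RUNX2 proximal window, 121 bases before it, and 38.6% of all windows held at least 1. The motif GAGGAA, the core of PU.1 sites, occurred once each at the proximal promoters of RUNX1 and RUNX3 and in 27.9% of all windows. TTGCNNAA, a C/EBP core, occurred once at the RUNX2 distal promoter and in 10.5% of all windows. The letters AGATAA, read by zinc finger factors of erythroid cells, were in none of the 6 windows and in 10.3% of all. The proximal windows were richer in G and C, at 72.0% in RUNX1, 76.0% in RUNX2, 76.0% in RUNX3 and 83.0% in CBFA2T3, against 66.3% at the RUNX3 distal and 42.7% at the RUNX2 distal promoter. No entry was found for the distal promoters of RUNX1, CBFB, CBFA2T3 and RUNX1T1. The distal side of the comparisons of motifs and of G and C thus rests on RUNX2 and RUNX3 alone. A match describes letters in the sequence and is no measurement of binding.

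Peaks were listed at 8 of the 10 promoters considered. A promoter counted when a peak overlapped the 2 kb on either side of its start. The distal start is the outer end of the gene, and the proximal start is the inner start, placed to a whole kb from general knowledge of the gene models, with an error that was not measured. All 4 proximal promoters carried a peak (RUNX1, RUNX2, RUNX3 and CBFA2T3), as did 4 of the 6 distal ones (RUNX1, RUNX3, CBFB and CBFA2T3). An inner start was set for those 4 genes only, while CBFB and RUNX1T1 were given a distal start alone. The counts for proximal and distal promoters thus cover different genes. Of the 4 genes with both promoters, 3 had peaks at both, and RUNX2 had them at the proximal promoter only. The share of promoters with a peak over the genome was not measured, since no full hg19 annotation was used here.

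RUNX1, the master regulator of definitive blood formation, had 12 peaks in a locus of 302 kb. Its distal promoter had the strongest of them, at chromosome 21, 36420091 to 36422048, with a total signal of 42062 and a maximum signal of 129. Total signal is the coverage summed over the peak and maximum signal its height. Both are the authors' values for the merged list, as its columns are read here. A further peak stood just upstream, at 36423172 to 36424181, with a total of 31693 and a maximum of 108. The proximal promoter lay under a broader and lower peak, at 36260277 to 36262908, with a total of 37362 and a maximum of 52. Both RUNX1 promoters therefore ranked in the top 10% of the list by total signal, at ranks 1234 and 1458 of 20085, and the distal one was also the taller.

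The other RUNX1 peaks lay within the gene. Between the promoters stood 6, of which the tallest, at 36398842 to 36399752, lay 23 kb downstream of the distal start. It was 910 bp long, with a total of 31250 and a maximum of 110, and at 34.3 signal units per base it was the densest RUNX1 peak. The intron between the RUNX1 promoters is known for a conserved enhancer active in blood stem cells. Its position was not in the sources used here, so whether any of the 6 peaks lies at this enhancer was not tested. A pair of peaks at 36279705 to 36281702 (total 34329, maximum 88) and 36283578 to 36285202 (total 13780) lay 141 and 138 kb downstream of the distal start, with a gap of 16.8 kb to the proximal promoter peak. A second pair, at 36355978 to 36356628 (total 5138) and 36358924 to 36359923 (total 9775), lay 66 and 63 kb downstream. The remaining peak of this portion, 3 kb downstream at 36419135 to 36419703, was the weakest of the locus, with a total of 2915. Past the proximal promoter, in the portion that encodes most of the protein, 3 peaks had totals of 21459 (36237251 to 36238776), 20834 (36207315 to 36209327) and 6013 (36179843 to 36180898). The list had no other peak within 200 kb of the gene: the nearest outside lay 253 kb away, at 35906818 to 35907327 with a total of 3621.

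RUNX1 peaks had a higher median total signal than the peaks of any other locus. It was 21146.5, against 5588.5 in the 34 peaks of the other loci together and 6479 in the whole list. CBFA2T3, whose median was 6161, had the higher mean per peak, 23053 against 21384 in RUNX1, and the higher summed signal, 391899 against 256610, with most of it in 1 peak. Of the 12, 5 lay in the top 10% of the list by total signal and 4 in the top 10% by maximum signal, where the shares of all peaks were 10.0% and 10.3%. Among the other 34 member peaks it was 1 by either measure. Over all 46, the counts were 6 by total and 5 by maximum, shares of 13.0% and 10.9%, close to those of the whole list. Of the hg19 genome cut into tiles as long as the RUNX1 locus, 4.44% held 12 or more peaks. Here and for the other loci, the tiles include stretches without genes, and counts were not compared with those of other gene loci.

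RUNX2, the factor of bone formation, had 5 peaks in 263 kb and none at its distal promoter, the one that starts the main isoform of osteoblasts. The nearest peak to that start lay 49 kb downstream. It was the strongest of the locus, at chromosome 6, 45344883 to 45346341, with a total of 17806 and a maximum of 38. SUPT3H, a subunit gene of the SAGA coactivator complex, overlaps RUNX2 in the RefSeq table, and the distance from its start to this peak was not measured. The proximal promoter had peaks at 45389028 to 45390277 (total 7070, maximum 17) and 45390528 to 45392385 (total 12158, maximum 22), which a gap of 0.251 kb divides. Past it, peaks at 45413191 to 45414056 and 45463406 to 45463939 had totals of 5016 and 3854, both below the median of the whole list. No RUNX2 peak was in the top 10% of the list, and 11.9% of tiles as long as the locus held 5 or more peaks. Within 200 kb of the gene the list had 7 peaks, these 5 included.

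RUNX3, a factor of T cell differentiation, had 9 peaks in 106 kb, the smallest of the loci. Both promoters carried one of similar total signal. The distal peak, at chromosome 1, 25291366 to 25293691, had a total of 20634 and a maximum of 43. The proximal peak, at 25256667 to 25257512, had a total of 16208 and a maximum of 51, so that it was shorter and slightly taller. A small peak at 25289488 to 25290081 (total 4303) also reached the distal window. Between the promoters stood 5 peaks, led by 25281319 to 25282187 with a total of 12311 and a maximum of 44. The other 4 had totals from 2617 to 4162, and the lowest of them, at 25275902 to 25276429, ranked 19988 of 20085. No peak was listed past the proximal promoter, in the gene's coding 3′ portion or in the flank beyond it. Upstream of the distal start, 13 kb away, a peak at 25304755 to 25305677 had a total of 8719. Tiles as long as the locus held 9 or more peaks in 1.54% of cases. Within 200 kb of the gene the list had 29 peaks, these 9 included.

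CBFB had the fewest peaks of the genes with any. Its promoter peak, at chromosome 16, 67062505 to 67062974, was 469 bp long with a total of 3560 and a maximum of 17, and ranked 15668 of 20085 by total signal. Nothing was listed inside the gene body of 72 kb. The upstream flank had a peak at 67047596 to 67048614 (total 4241) and the downstream flank one at 67143177 to 67144923 (total 9222). In the RefSeq table these flanks also reach CES4A, a carboxylesterase gene, and PHAF1. The promoter of the partner subunit thus had a peak whose total was lower than that of the promoter peak nearest the start in RUNX1, RUNX2, RUNX3 and CBFA2T3. Of tiles as long as the locus, 9.23% held 3 or more peaks. Within 200 kb of the gene the list had 19 peaks, these 3 included.

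CBFA2T3, the ETO-family co-repressor gene of early blood cells, had 17 peaks in 143 kb and the strongest peak of all members. The peak at its distal promoter, at chromosome 16, 89039087 to 89046424, was 7337 bp long with a total of 274168 and a maximum of 247. It ranked 23 of 20085 by total signal, 110 by maximum and 64 by length, and it held 70.0% of the signal of the locus. Upstream of it a peak at 89047997 to 89050608 had a total of 21792, and weaker peaks at 89052195 to 89052946 and 89055205 to 89055990 had 3133 and 2699. The proximal promoter had 3 peaks of totals 10723 (89005881 to 89007546), 4048 (89004761 to 89005364) and 2812 (89008339 to 89008912), so the outer start far exceeded the inner one. The 2 weaker ones lie toward the edges of the window, and whether they count there depends on where the inner start is placed. Between the promoters, 4 peaks had totals from 3100 to 9212. Past the proximal promoter, 3 peaks had totals of 10521 (89002891 to 89004360), 2747 (88994177 to 88994925) and 14596 (88991163 to 88992555), and then a stretch of 52.9 kb had none. The remaining 3, with totals of 6161, 8681 and 10208, lay in the downstream flank, which GALNS, TRAPPC2L and PABPN1L share in the RefSeq table. The last of these peaks, at 88919854 to 88921553, straddles the edge of the 20 kb flank, and the next one outside lay 31.3 kb from the gene with a total of 6961. Tiles as long as the locus, those in stretches without genes included, held 17 or more peaks in 0.405% of cases. The list had 70 peaks within 200 kb of the gene, these 17 included, so peaks were also frequent around the locus.

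RUNX1T1, the ETO-family gene fused to RUNX1 in core-binding factor leukemia, had no peak. Its locus spans 188 kb of chromosome 8, and the nearest listed peak lay 863 kb from the gene, at 93977718 to 93978051 with a total of 2963. Most tiles of this length, 68.4%, also held none, so an empty locus is common in this list. Of tiles of 100 kb, 23.4% held any peak. A missing peak shows that no stretch passed the authors' threshold, and not that the signal was 0. CBFA2T3 and RUNX1T1, the members of the ETO family examined, were thus the loci with the most and with the fewest peaks.

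**Figure D1:**
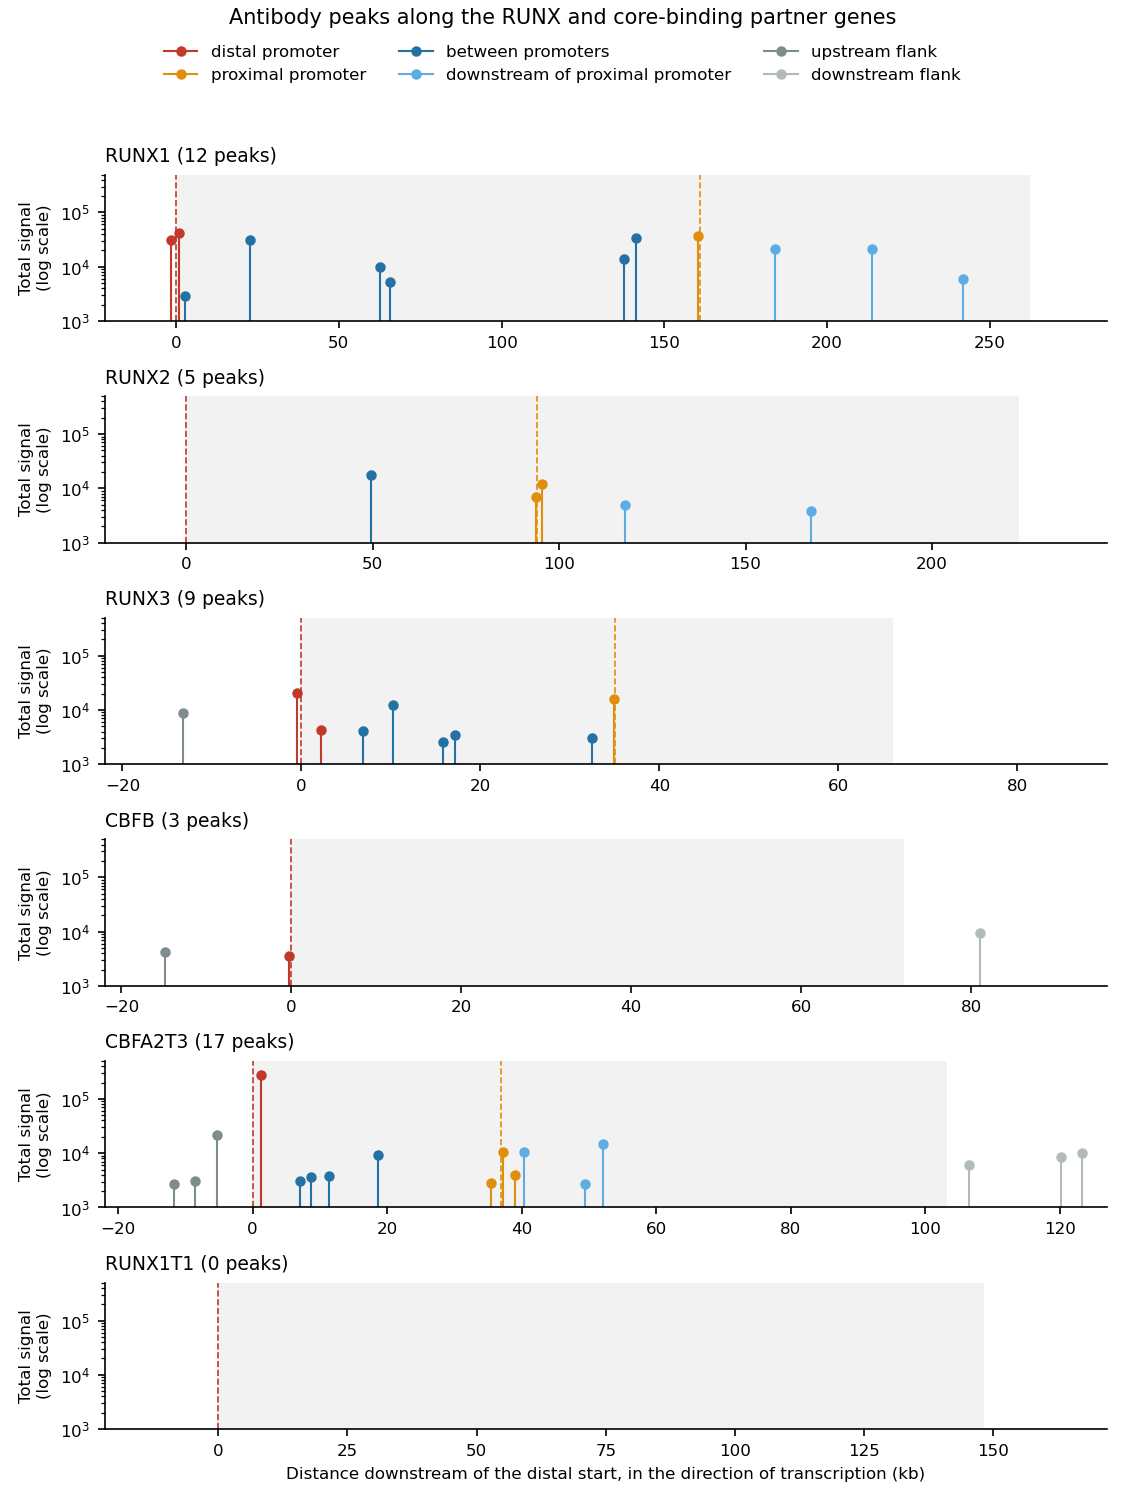
Each of the 46 peaks is drawn at its midpoint by distance downstream of the distal start (x axis, kb, in the direction of transcription) and by the authors' total signal (y axis, log scale), with 1 panel for each gene. Grey shading is the gene body, dashed lines are the distal (red) and proximal (orange) starts, and the CBFA2T3 distal peak of 274168 stands above all others while RUNX1T1 is empty.

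Set together, the 6 loci cover 1114 kb and had 41.3 peaks per Mb, against 6.61 per Mb over chromosomes 1 to 22 and X, a ratio of 6.25. Without CBFA2T3 the density was 29.9 per Mb and the ratio 4.52, and leaving out any other gene with peaks gave ratios from 5.55 to 7.29. These are gene loci, whereas the genome figure includes stretches without genes, and density was not compared with that of other genes. Peaks covered 5.35% of the loci and 0.779% of the chromosomes. The peaks themselves were of similar size to those of the whole list, without a test: the median total was 8700 against 6479 in the whole list, the median maximum 18 against 22 and the median length 1004 against 893 bp. Longer than 2 kb were 5 of the 46, or 10.9%, against 11.0% of the whole list.

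**Figure D2:**
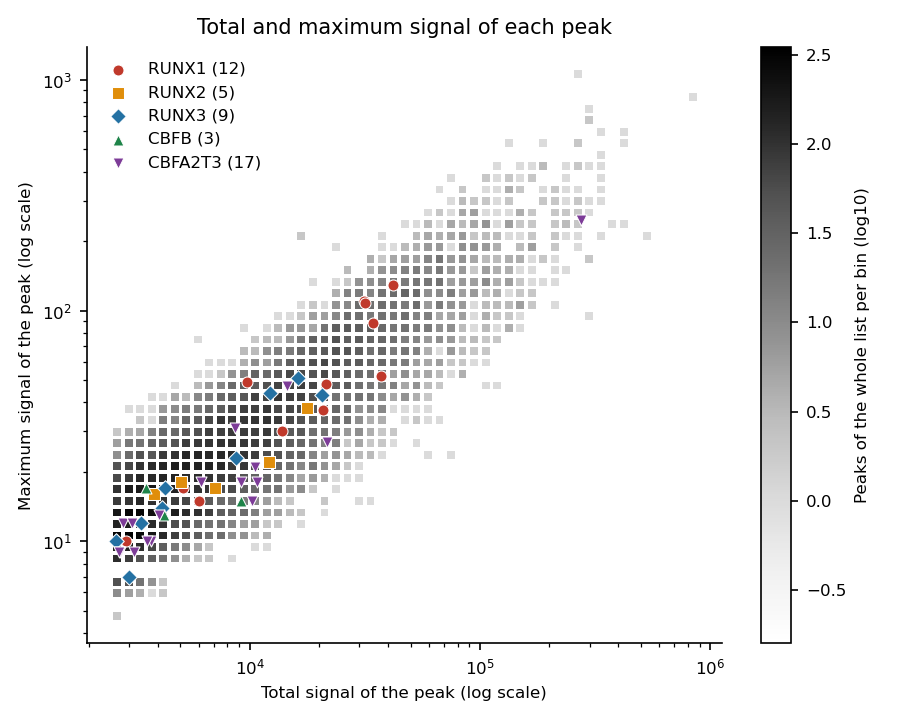
Total signal (x axis, log scale) and maximum signal (y axis, log scale) of each member peak, coloured by gene, over the whole list of 20085 peaks counted in bins (grey scale, log10 of peaks per bin). The CBFA2T3 distal promoter peak, with a total of 274168 and a maximum of 247, lies far from the other members, and 4 RUNX1 peaks with maxima from 88 to 129 come next.

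By place, 13 of the 46 peaks lay in a promoter window of the member genes, 24 elsewhere in a gene body and 9 in the flanks. Starts of neighbouring genes, such as SUPT3H, PHAF1, GALNS and TRAPPC2L, had no window. A peak at such a start counts here as outside the promoters, and how many do was not checked. The promoter peaks had a median total of 12158, against 6161 in the other 33, and held 59.3% of the signal summed over all members. Without the CBFA2T3 distal peak they held 37.6%, with a median of 11440.5. Peaks at distal promoters had totals from 3560 to 274168, and those at proximal promoters from 2812 to 37362, so the ranges overlapped. The gene-body peaks fall in introns or exons, which could not be told apart without exon positions.

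In the 4 genes with both promoters, 16 of the 24 gene-body peaks outside the promoter windows lay between the promoters. This is 66.7% (95% Wilson interval 46.7 to 82.0%, which covers counting error only and treats neighbouring peaks as independent), where this portion makes up 49.4% of the length. The density was 5.14 peaks per 100 kb between the promoters and 2.51 downstream of the proximal one. RUNX3 differed most, with 16.1 per 100 kb between the promoters and none downstream, followed by CBFA2T3 with 12.1 and 4.69. RUNX1, with 3.82 and 3.03, and RUNX2, with 1.11 and 1.57, had similar densities in both portions. The interval for the 4 genes includes 49.4%, the share of length. Without RUNX3 the share between the promoters was 57.9%, so the difference from the share of length rests in large part on that gene.

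**Figure D3:**
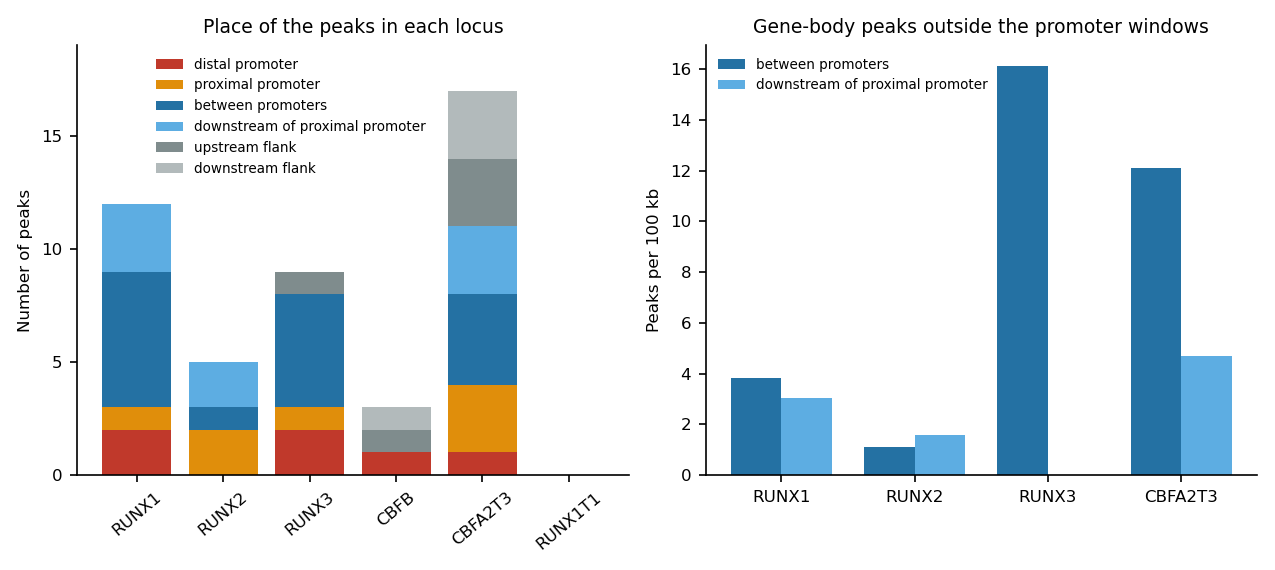
Left, number of peaks in each locus (y axis) stacked by place; right, gene-body peaks per 100 kb (y axis) between the promoters and downstream of the proximal promoter, outside the promoter windows, for the 4 genes with both promoters. RUNX3 has 16.1 peaks per 100 kb between its promoters and none downstream, while RUNX1 and RUNX2 show little difference between the portions.

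ETV6, which encodes a repressor of the ETS family and is fused to RUNX1 in childhood leukemia, is the only gene of a list of 16 partner and pathway genes with an hg19 model at hand. The model, taken between its outermost transcript ends, runs from 11802 to 12268 kb of chromosome 12. Whether ETV6 itself reaches that far was not checked. Over this span with its 20 kb flanks, 505 kb, 6 peaks were listed, with totals from 2703 to 27274. None was in the top 10% of the list. The strongest, at 12161975 to 12164032, counts only if the gene extends near it. The density of 1.19 peaks per 100 kb for this span was below that of all 5 loci with peaks, from 1.90 in RUNX2 to 11.9 in CBFA2T3. If ETV6 is shorter than the span, its own count and density may differ, so the gene itself cannot be ranked beside the members. Tiles as long as this span with its flanks held 6 or more peaks in 17.9% of cases.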

How the data were processed

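CUT&Tag of NB4 cells used a PML-RARA antibody, with 2 replicates, per the labels. The submitters' processing notes name hg19 and the tools SEACR (a peak caller), Bowtie2, bedtools, Trimmomatic and SAMtools; for versions, threshold, control track and merging, the sources used here give nothing. The authors deposited 1 merged list with a total and a maximum signal per peak. The column headed width is read as SEACR's total signal: it exceeds the peak's length in all 20085 rows and never exceeds length times maximum. No scaling to depth is stated, depth is unknown, and starts, printed as deposited, may count from 0.

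Gene bodies were taken to the nearest kb, with 20 kb flanks, and the proximal starts of 4 genes from general knowledge of hg19 gene models, to a whole kb, with an error that was not measured. A promoter window was 2 kb on either side. Peaks were placed by overlap (pandas 2.3.3, numpy 2.4.6), and the placement was tested on simulated peaks. Tiles ran end to end over chromosomes 1 to 22 and X, assembly gaps included (lengths from GenomeInfoDb 1.38.1), and the ETV6 model came from GenomicFeatures 1.54.1. RefSeq tables on GRCh38.p14 gave neighbour names and promoter sequences. No test was run, since 1 merged list allows none over samples. Named are the 6 genes with their promoter peaks, strongest and tallest peaks, and the others by position or range. Members and lists were chosen with earlier results of these data known.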

Additional observations from a re-analysis of the deposited data

How the results depend on the processing

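The count of 46 peaks in the 6 loci was 35 with no flank, 41 with a 10 kb flank, 55 with a 50 kb flank, 45 when a peak's midpoint had to lie in the locus and 39 after merging peaks within 1 kb. It was 25 with only peaks at or above the list's median total signal and 13 with only those at or above the upper quartile, where fewer peaks enter by construction. With no flank CBFB had 0 peaks and CBFA2T3 had 11. RUNX1T1 had 0 under each of these 7 alternatives. The 8 promoters with a peak were 8 with a window of 1 or 5 kb and after merging, and 7 with peaks at or above the median, where CBFB lost its peak. The share of gene-body peaks between the promoters was 66.7% with a window of 5 kb as well. No paired analysis was possible because the deposited list merges both replicates of 1 group, and for the same reason no replicate could be left out. Gene ends are given to a whole kb and inner starts come from general knowledge, with an error that was not measured and may exceed 1 kb, so peaks near the edge of a promoter window may fall in or out of it. An unknown depth limits what an unlisted stretch shows.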
